A study of Mus musculus with 28 samples.

Results

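The 10 genes described here, *Glul*, *Oat*, *Slc1a2*, *Rhbg*, *Lect2*, *Tbx3*, *Axin2*, *Lgr5*, *Rnf43*, and *Znrf3*, are known as Wnt targets that hepatocytes transcribe around the central vein of the liver lobule. They were chosen by name, and their rows were found through the Ensembl identifiers that map to these symbols. Each symbol matched 1 of the 49585 features in the table of read counts, and all 10 were among the 21583 genes that were tested, those whose normalized counts averaged 0.5 or more. The libraries came from the whole livers of 28 C57BL/6JOlaHsd mice, 7 in each of 4 groups, namely WT and SIRT6-tg males and WT and SIRT6-tg females. The SIRT6-tg mice carried a *Sirt6* transgene in the whole body and came from 1 transgenic line, and the WT mice were their littermates. All mice were 5 to 7 months old by their labels and were killed in the afternoon after food had been withdrawn for 4 h. *Sirt6* separated the genotypes in every library, with TMM-scaled CPM, the counts relative to library size, of 1.69 to 3.24 in male WT, 198 to 358 in male SIRT6-tg, 1.80 to 6.22 in female WT, and 16.4 to 50.2 in female SIRT6-tg mice. The transgene was thus far more abundant in males, so that sex and transgene level cannot be told apart where the genotype effect is compared between the sexes.

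In the liver, endothelial cells of the central vein release Wnt2, Wnt9b, and R-spondin 3, which reach the nearest hepatocytes and stabilize beta-catenin there. Beta-catenin then acts with TCF/LEF factors on genes such as *Glul*, whose product glutamine synthetase captures the last ammonia before blood leaves the lobule. Some targets feed back on the pathway. The ubiquitin ligases RNF43 and ZNRF3 remove Wnt receptors from the cell surface, LGR5 binds R-spondins and relieves that removal, and AXIN2 is a scaffold of the complex that degrades beta-catenin.

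Of the 10 genes, 6 had a promoter window in the RefSeq table for GRCm38.p6, with 7 windows in all because *Rnf43* had more than 1. *Lgr5*, *Rhbg*, *Tbx3*, and *Znrf3* are named only. The 250 bases before each start were searched on both strands for 4 sequences of 7 letters that resemble the TCF/LEF motif. With a final A after the sixth letter A or T these were CTTTGAA and also CTTTGTA. With a final T they were CTTTGAT and also CTTTGTT. At least 1 of them was present in 2 of the 7 windows, those of *Slc1a2* and *Lect2*, and in 14.8% of all 32851 windows of the same length. Printed here are 3 windows with capitals for the matched letters, because *Axin2* and *Lect2* were the pair of genes with the most opposed variation among mice and *Slc1a2* holds the other match. They lie at chr11:108920099-108920348 on the plus strand for *Axin2*, at chr13:56548539-56548788 on the minus strand for *Lect2*, and at chr2:102706188-102706437 on the plus strand for *Slc1a2*.
Axin2: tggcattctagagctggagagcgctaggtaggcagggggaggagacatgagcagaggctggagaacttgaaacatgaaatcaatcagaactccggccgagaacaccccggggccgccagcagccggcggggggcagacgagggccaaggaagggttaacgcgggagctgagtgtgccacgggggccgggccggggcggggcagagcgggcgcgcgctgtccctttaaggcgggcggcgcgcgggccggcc
Lect2: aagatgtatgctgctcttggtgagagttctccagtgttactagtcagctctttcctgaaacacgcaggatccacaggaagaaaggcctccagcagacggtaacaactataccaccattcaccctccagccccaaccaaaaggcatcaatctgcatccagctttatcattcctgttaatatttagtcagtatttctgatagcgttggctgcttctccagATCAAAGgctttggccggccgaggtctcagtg
Slc1a2: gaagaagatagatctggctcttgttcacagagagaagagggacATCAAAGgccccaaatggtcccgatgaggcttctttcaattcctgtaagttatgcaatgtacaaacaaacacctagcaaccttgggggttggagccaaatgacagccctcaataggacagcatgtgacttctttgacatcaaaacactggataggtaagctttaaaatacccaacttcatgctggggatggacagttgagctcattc
In both matches the capitals spell CTTTGAT on the opposite strand. They lie 32 to 26 bases before the *Lect2* start and 207 to 201 bases before the *Slc1a2* start. That *Slc1a2* start lies 47779 bases inside the Gencode gene, so its window belongs to an internal start and not to the first one. A match describes letters only, and nothing about binding was measured here.

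The 10 genes spanned a wide range of levels. By the median over all 28 livers of CPM per kilobase of exon, *Oat* was highest with 668, followed by *Glul* with 289, *Lect2* with 124, and *Slc1a2* with 20.3. *Tbx3* had 6.49, *Rnf43* had 4.83, *Znrf3* had 1.91, *Axin2* had 1.69, *Rhbg* had 1.02, and *Lgr5* had 0.866 CPM per kilobase. The ranges over the 28 livers did not overlap between *Lect2* and *Slc1a2* or between *Slc1a2* and *Tbx3*, whereas every other pair of neighbours in this order overlapped. *Oat* ranked 67th and *Glul* 152nd among all genes tested on this scale. The position of *Rhbg* in the order depended on its gene model, because only 747 of its 1937 exon bases are free of the gene *Gm38392* on the same strand. Per kilobase of those bases its median was 2.64 CPM. Whole-liver RNA holds no position within the lobule, so that fewer cells of a type and less RNA per cell cannot be told apart for any of these genes.

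**Figure D1:**
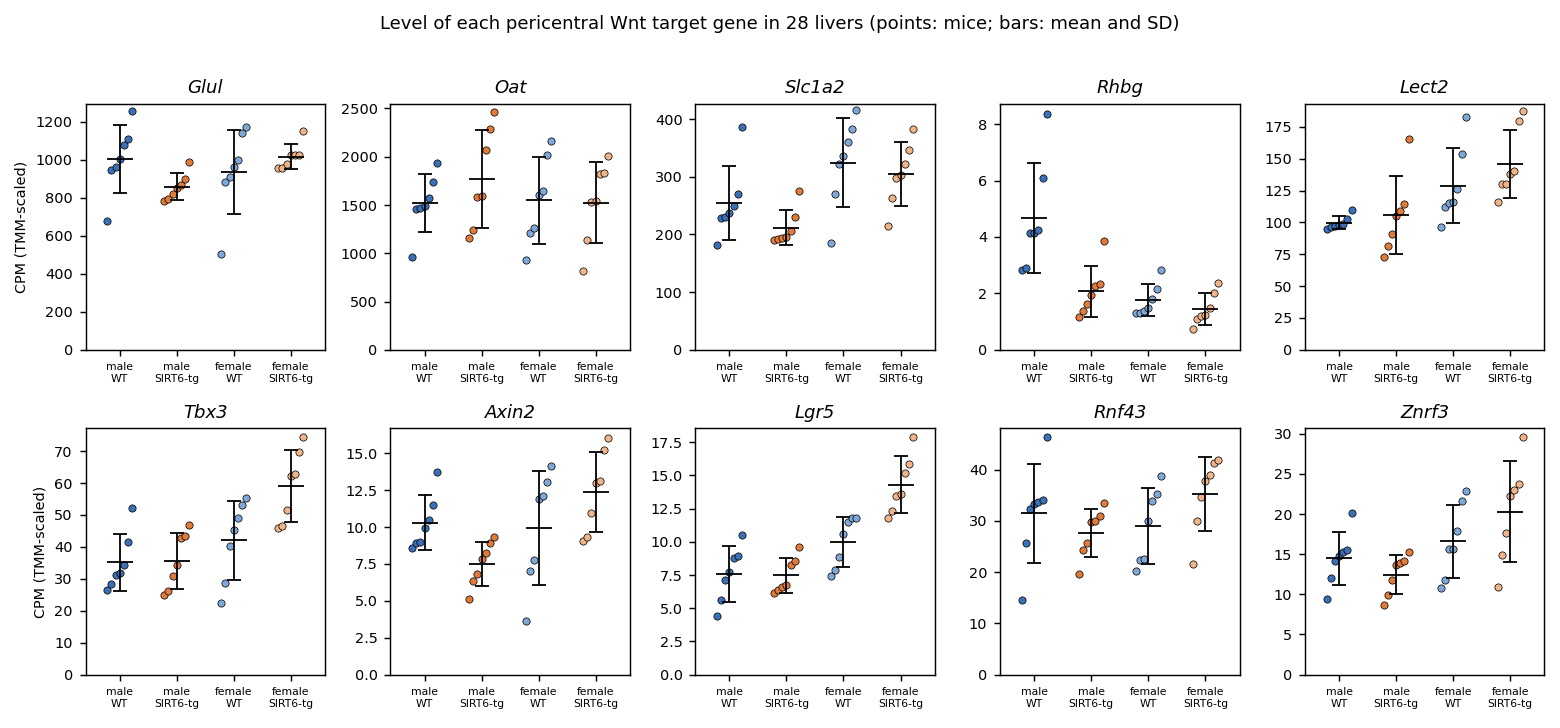
Level of each of the 10 genes in CPM (linear axis from 0) in the 4 groups of 7 mice. Each point is a mouse, ordered by value within its group, and bars give the mean and the SD. *Rhbg* is highest in male WT mice, and the female SIRT6-tg mice hold the highest means of *Tbx3*, *Axin2*, *Lgr5*, *Rnf43*, and *Znrf3*.

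In males, the question was whether SIRT6 overexpression went with a change of the pericentral Wnt targets. Of the 10 genes, *Rhbg* alone passed the test between male SIRT6-tg and male WT mice (edgeR's quasi-likelihood test, Benjamini-Hochberg adjusted over all genes tested, threshold 0.05), and it was lower. Among all genes tested, 20.7% passed, 9.68% higher and 11.0% lower, so that 1 of 10 was not above that background. The median log2 fold change of the 10 genes was -0.20 and that of all genes tested was 0.06. Of the 10, 3 had a value above 0 and 7 a value below 0 with TMM, and all 10 were below 0 under library size alone.

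*Rhbg* encodes an ammonia transporter of the Rhesus family in the hepatocyte membrane (ENSMUSG00000104445.1, chr3:88242874-88254709, minus strand). Its level was 2.83, 4.14, and 8.34 CPM in male WT mice as lowest, median, and highest of the 7, and 1.16, 1.93, and 3.87 CPM in male SIRT6-tg mice. In female WT mice the same values were 1.30, 1.49, and 2.84 CPM, and in female SIRT6-tg mice they were 0.724, 1.25, and 2.36 CPM. Male WT mice thus had the highest median, and 6 of the 7 male SIRT6-tg mice lay below every male WT mouse. The last, at 3.87 CPM, lay above the male WT mice at 2.83 and 2.91 CPM, so that the groups overlapped. The highest female WT mouse also lay just above the lowest male WT mouse. The log2 fold change was -1.18 ± 0.26 (SE), which corresponds to a level 0.441 times that of WT, with an adjusted p of 0.00146. *Rhbg* rested on few reads, 58 to 203 per library in male WT and 28 to 73 in male SIRT6-tg mice. Its gene model shares exons with *Gm38392*, so its counts are uncertain in level, and *Gm38392* itself had 0 to 3 counts in a library. Over all alternatives run, the log2 fold change of *Rhbg* lay between -1.57 and -0.98, and it passed in each of them.

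*Axin2*, the most general feedback target of the pathway (ENSMUSG00000000142.15, chr11:108920349-108950783, plus strand), was the next in size. Its lowest, median, and highest values were 8.56, 9.96, and 13.8 CPM in male WT and 5.14, 7.83, and 9.33 CPM in male SIRT6-tg mice. Of the male SIRT6-tg mice, 5 lay below every male WT mouse, but the groups overlapped. The log2 fold change was -0.45 ± 0.20 (SE) with an unadjusted p of 0.0343 and an adjusted p of 0.118 by edgeR, so the difference did not pass. Over the alternatives run, the adjusted p lay between 0.0151 and 0.230, and it passed in 5 of them. These were library size alone, the secreted hepatocyte list as reference, males fitted alone, 2 surrogate variables, and the fit without the second female WT library.

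None of the genes of glutamine and glutamate metabolism passed in males. *Glul* (ENSMUSG00000026473.15, chr1:153899944-153909723, plus strand) had 676, 1002, and 1258 CPM in male WT mice and 781, 852, and 987 CPM in male SIRT6-tg mice, again as lowest, median, and highest. The range of the transgenic mice lay inside that of the WT mice, and the log2 fold change was -0.23 ± 0.13 (SE, adjusted p = 0.227). *Slc1a2* (ENSMUSG00000005089.15, chr2:102658659-102790784, plus strand), which encodes a glutamate transporter, had 182, 237, and 386 CPM in male WT and 190.2, 195, and 275 CPM in male SIRT6-tg mice. The ranges overlapped, and the log2 fold change was -0.27 ± 0.15 (SE, adjusted p = 0.237). Without the fifth WT male, which held the highest value, it was -0.14. *Oat* (ENSMUSG00000030934.9, chr7:132557478-132576398, minus strand), the ornithine aminotransferase that links ornithine to glutamate, had 966, 1487, and 1932 CPM in male WT and 1161, 1597, and 2467 CPM in male SIRT6-tg mice. The genotypes overlapped widely. The log2 fold change was 0.22 ± 0.20 (SE, adjusted p = 0.483), and the sign turned below 0 under 2 of the scalings.

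None of the remaining 5 genes passed in males. *Lgr5* had a log2 fold change of -0.02, *Rnf43* of -0.18, and *Znrf3* of -0.21, with adjusted p between 0.486 and 0.957. *Lgr5* ran from 4.38 to 10.5 CPM in male WT and from 6.17 to 9.61 CPM in male SIRT6-tg mice, *Rnf43* from 14.6 to 46.4 and from 19.6 to 33.4 CPM, and *Znrf3* from 9.40 to 20.1 and from 8.64 to 15.3 CPM. *Tbx3* ran from 26.5 to 52.3 and from 24.8 to 46.8 CPM. The ranges of the genotypes overlapped widely in all 4 genes. *Tbx3*, a transcription factor, had a log2 fold change of 0.02, and *Lect2*, a secreted hepatocyte protein, had 0.08. Both turned below 0 under library size alone, to -0.25 and -0.22. The 95% confidence interval of *Lgr5* was -0.34 to 0.30 and that of *Tbx3* was -0.36 to 0.39 on the log2 scale. In *Lect2* the male WT mice were close to each other, from 94.5 to 110.0 CPM, whereas the male SIRT6-tg mice ran from 73.0 to 165 CPM.

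**Figure D2:**
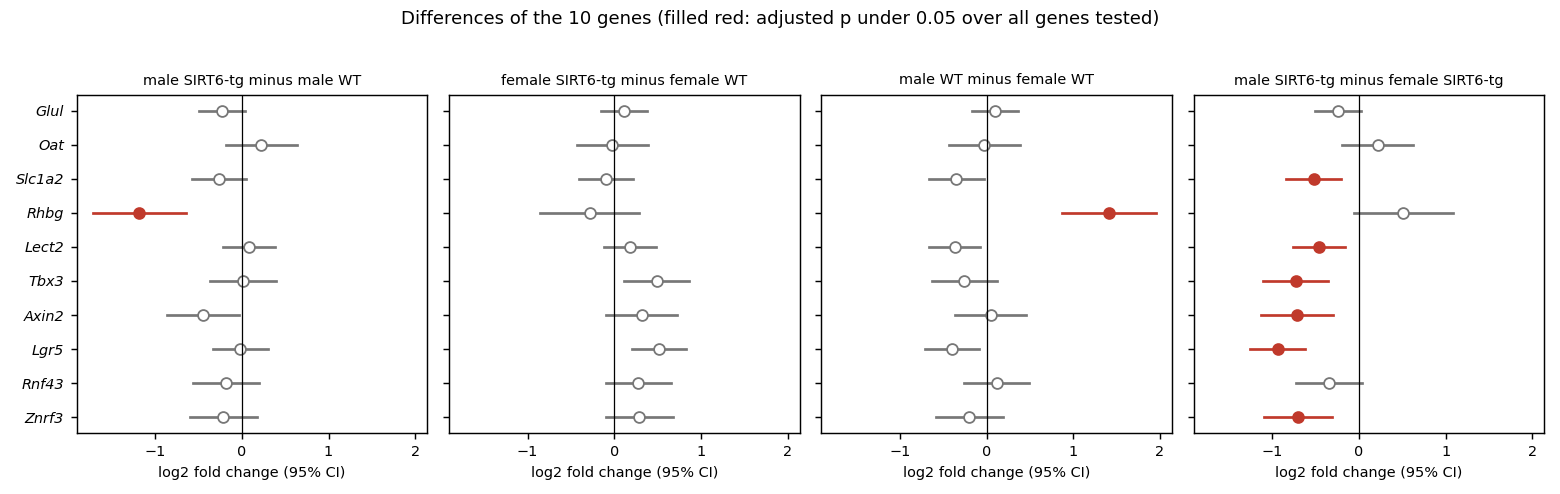
Log2 fold changes (points) with 95% confidence intervals (lines) of the 10 genes in 4 comparisons of 7 against 7 mice. Filled red points passed the test at an adjusted p under 0.05: *Rhbg* in the 2 comparisons that involve male WT mice, and 6 genes between SIRT6-tg males and females.

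The male result depended on how the libraries were scaled, and the dependence was shared by all genes. The TMM factors, which correct for the make-up of a library, lay between 1.06 and 1.17 in male WT and between 0.821 and 0.993 in male SIRT6-tg mice. Scaling by library size alone moved the median log2 fold change of all genes from 0.06 to -0.22, and scaling to a list of secreted hepatocyte proteins moved it to -0.30. Under library size alone, *Glul* (-0.51), *Slc1a2* (-0.54), *Axin2* (-0.72), and *Rhbg* (-1.49) passed as lower, 4 of the 10 genes against 18.9% of all genes that passed as lower. Of all genes that passed, 46.8% were higher with TMM but 4.89% under library size alone and 2.78% with the hepatocyte reference. With that reference the same 4 genes and *Lect2* (-0.32, adjusted p = 0.0490) passed as lower, 5 of the 10 against 19.8% of all genes. With the median of all genes subtracted, the values hardly moved. *Axin2* lay between -0.51 and -0.50, *Glul* between -0.29 and -0.28, *Slc1a2* at -0.32, and *Rhbg* between -1.27 and -1.24 relative to that median under all 5 scalings. Another scaling shifts all genes nearly alike, so this is a property of the calculation, and *Glul*, *Slc1a2*, and *Axin2* did not pass with TMM, RLE, or upper quartile.

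**Figure D3:**
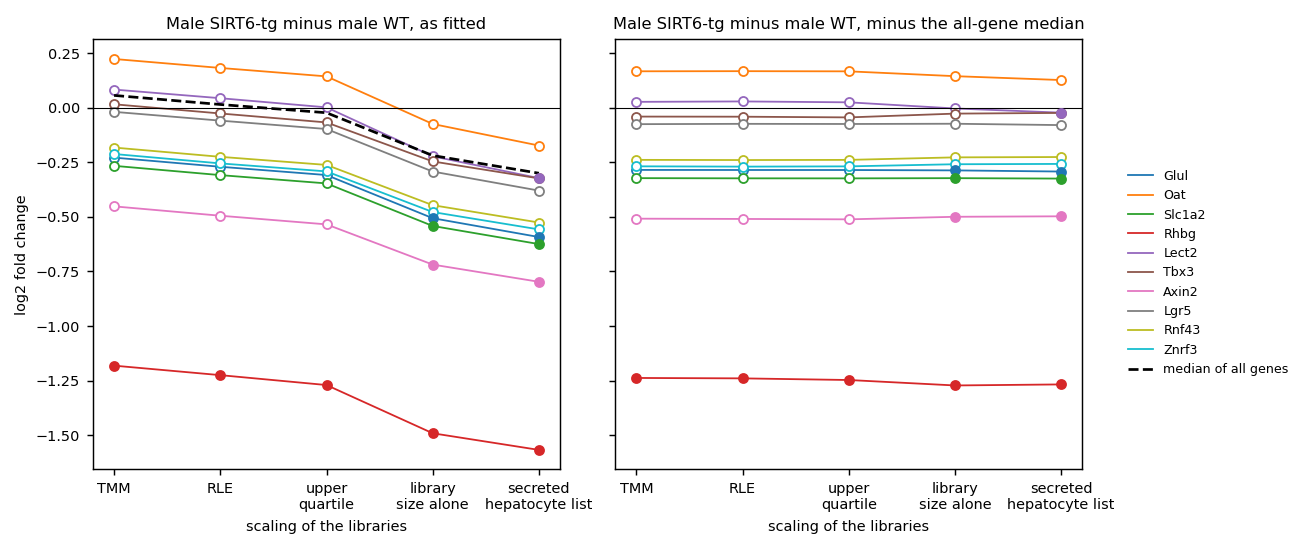
Log2 fold changes of the 10 genes between male SIRT6-tg and male WT mice under 5 scalings of the libraries, as fitted (left) and after subtraction of the median of all genes tested (right). Filled points passed at an adjusted p under 0.05 and the dashed line is the median of all genes, which falls from 0.06 to -0.30 while the values on the right stay level.

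In females none of the 10 genes passed the test between SIRT6-tg and WT mice. Only 0.0278% of all genes passed there, 6 genes in all, so that this count says little about the 10 genes themselves. An unadjusted p under 0.05 was found for 2 of the 10, against 1212 of the 21583 genes tested, and DESeq2 called 0 of the 10. The median log2 fold change was 0.23 in the 10 genes and 0.00 in all genes, with 7 values above 0 and 3 below 0.

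The 2 genes were *Lgr5* and *Tbx3*. *Lgr5* (ENSMUSG00000020140.15, chr10:115450311-115587780, minus strand) had 7.43, 10.6, and 11.8 CPM in female WT mice and 11.8, 13.6, and 17.9 CPM in female SIRT6-tg mice. Of the SIRT6-tg females, 6 lay above every WT female and the last was just under the highest WT value. The log2 fold change was 0.52 ± 0.15 (SE, 95% confidence interval 0.20 to 0.83), with an unadjusted p of 0.00202 and an adjusted p of 0.399 by edgeR. *Tbx3* (ENSMUSG00000018604.18, chr5:119670669-119684724, plus strand) had 22.5, 45.2, and 55.4 CPM in female WT and 45.8, 62.3, and 74.5 CPM in female SIRT6-tg mice. The log2 fold change was 0.49 ± 0.18 (SE), with an adjusted p of 0.636, and 4 of the SIRT6-tg females lay above every WT female.

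The feedback genes *Axin2*, *Rnf43*, and *Znrf3* had log2 fold changes of 0.31, 0.28, and 0.29 in females, each with an interval that includes 0. *Axin2* varied widely in WT females, from 3.65 to 14.1 CPM with a median of 11.9, and its values in SIRT6-tg females were 9.07, 13.0, and 16.1 CPM. *Glul* had 503, 960, and 1171 CPM in WT females and 955, 1023, and 1152 CPM in SIRT6-tg females. The lowest WT female stood apart, since the next was at 881 CPM, and the other WT females overlapped with the SIRT6-tg females. *Rhbg*, *Slc1a2*, and *Oat* had values of -0.28, -0.09, and -0.02 in females, and *Lect2* had 0.18.

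The genotype effect was then compared between the sexes with an interaction contrast. None of the 10 genes passed by edgeR or by DESeq2, against 5.05% of all genes by edgeR. An unadjusted p under 0.05 was found for 3 of the 10 and for 4055 of all 21583 genes. The values of 9 of the 10 genes were below 0, that is, lower in males than in females, with a median of -0.47 against 0.03 for all genes tested. *Axin2* had -0.77 ± 0.29 (SE, adjusted p = 0.126), *Rhbg* -0.90 ± 0.38 (adjusted p = 0.192), and *Lgr5* -0.54 ± 0.22 (adjusted p = 0.165). *Oat* was the exception with 0.24, which became -0.05 under library size alone. Of all genes that passed this contrast, 23.9% were higher with TMM and 1.40% under library size alone. Under library size alone *Glul*, *Lgr5*, *Axin2*, and *Rhbg* passed as lower in this contrast, where 8.51% of all genes passed as lower, and with the hepatocyte reference *Lect2* passed as well, where 10.5% did.

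Between WT males and WT females, 1 of the 10 genes passed, as did 12.4% of all genes, 6.65% higher and 5.71% lower in males. That gene was *Rhbg*, which was higher in males by 1.41 ± 0.27 on the log2 scale (SE, adjusted p = 0.000449), and 6 of the 7 WT males lay above every WT female. *Slc1a2*, *Lgr5*, and *Lect2* had values of -0.35, -0.40, and -0.37 with adjusted p between 0.0911 and 0.145. Without the fifth male WT library, *Slc1a2* (-0.48, adjusted p = 0.0260) and *Lgr5* (-0.49, adjusted p = 0.0316) passed as lower in males. Without the first female WT library, *Slc1a2* passed as lower in males (-0.44, adjusted p = 0.0397).

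Between SIRT6-tg males and SIRT6-tg females, 6 of the 10 genes passed, all lower in males, whereas 23.1% of all genes passed, 12.9% higher and 10.2% lower. *Lgr5* differed most, by -0.94 ± 0.16 (SE, adjusted p = 5.6e-05), and its ranges did not overlap, 6.17 to 9.61 CPM in males and 11.8 to 17.9 CPM in females. *Tbx3* differed by -0.73 (adjusted p = 0.00469), *Axin2* by -0.72 (adjusted p = 0.0109), and *Znrf3* by -0.70 (adjusted p = 0.00807). *Slc1a2* differed by -0.52 (adjusted p = 0.0139) and *Lect2* by -0.47 (adjusted p = 0.0208). The count was 6 under every scaling. It fell to 5 when the first male SIRT6-tg library was left out, where *Lect2* had an adjusted p of 0.0510. The share of 10.2% is the background with TMM only. All genes that passed numbered 4988 with TMM, 5002 under upper quartile, and 4240 with the hepatocyte reference. Of these, 55.9%, 39.2%, and 36.6% were higher, so more of the calls among all genes were lower under those 2 scalings as well. *Rhbg* did not pass with TMM between SIRT6-tg males and females (0.51 ± 0.28, adjusted p = 0.190).

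The 2 comparisons within males and within the transgenic mice share the male SIRT6-tg libraries, so their values stand side by side without a test of overlap. For *Axin2*, the group means were 10.3 ± 1.83 CPM in male WT, 7.52 ± 1.49 in male SIRT6-tg, 9.96 ± 3.85 in female WT, and 12.4 ± 2.74 in female SIRT6-tg mice (SD, n = 7 each). For *Znrf3* (ENSMUSG00000041961.14, chr11:5276324-5444847, minus strand) they were 14.5 ± 3.29, 12.5 ± 2.46, 16.6 ± 4.55, and 20.3 ± 6.27 CPM in the same order. For *Rnf43* (ENSMUSG00000034177.15, chr11:87662722-87735539, plus strand) they were 31.4 ± 9.64, 27.7 ± 4.72, 29.0 ± 7.36, and 35.2 ± 7.25 CPM. All 3 feedback genes had their lowest mean in SIRT6-tg males and their highest in SIRT6-tg females. For *Lect2* (ENSMUSG00000021539.8, chr13:56542464-56548502, minus strand) the means were 99.7 ± 5.24, 106 ± 30.4, 129 ± 29.6, and 146 ± 26.9 CPM, higher in both female groups.

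The rest of the pathway was read from lists. With TMM, their counts in males stand beside the 9.68% of all genes that passed as higher and the 11.0% that passed as lower. Counts under library size alone stand beside the 18.9% of all genes that passed as lower there. Of the 4294 genes that passed under that scaling, 4.89% were higher. Among 23 Wnt ligands and R-spondins, 13 were tested, and in males 1 passed as higher and 2 as lower, a share close to that of all genes, with a median log2 fold change of -0.52. *Wnt9b*, one of the central vein ligands, had 1.26 to 2.27 CPM in male WT and 0.530 to 1.29 CPM in male SIRT6-tg mice, ranges that overlap slightly, and fell by 0.90 on the log2 scale (adjusted p = 0.00692). *Wnt5a* fell by 0.80 (adjusted p = 0.0122) and *Wnt9a* rose by 0.81 (adjusted p = 0.0309). *Wnt2* had 5.16 ± 0.933 CPM in male WT and 3.84 ± 1.14 CPM in male SIRT6-tg mice (log2 fold change -0.43, adjusted p = 0.148), and *Rspo3* had 9.55 ± 3.21 and 8.56 ± 3.14 CPM (log2 fold change -0.16, adjusted p = 0.629). Without TMM factors *Wnt2* passed as lower (-0.72, adjusted p = 0.0122) and *Wnt9a* no longer passed (0.53, adjusted p = 0.198). No gene of this list passed in females, where *Wnt9b* was at 1.10 ± 0.257 CPM in WT and 1.09 ± 0.601 CPM in SIRT6-tg mice.

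The endothelial cells that make these ligands are a minor part of a whole-liver library. Of 18 endothelial markers, 5 passed with TMM as lower in SIRT6-tg males and none as higher. Their summed level lay between 385 and 513 CPM in male WT and between 359 and 455 CPM in male SIRT6-tg mice, and none of the 18 was at 0 in all libraries. Under library size alone 12 of the 18 passed as lower, where 18.9% of all genes did. Other cell types moved more. All 8 Kupffer cell markers were lower in SIRT6-tg males, with sums of 354 to 1183 CPM in WT and 305 to 512 CPM in SIRT6-tg mice, as were 9 of 10 T and NK cell markers, with sums of 16.8 to 69.7 and 5.26 to 9.49 CPM. Of the markers of stellate cells 7 of 11 were lower and of B cells 4 of 6. None of 7 cholangiocyte markers passed and 1 of 5 erythroid markers was higher. Of other organs, the pancreas and fat, 2 of 7 markers were lower but rested on very few reads. That list's summed level was 0.233 to 8.22 CPM in male WT mice (median 0.552) and 0.380 to 0.660 CPM in male SIRT6-tg mice (median 0.493). Of 15 secreted hepatocyte proteins 7 were higher with TMM and none under library size alone. The part of these cell types in the values of the 10 genes and of the ligands was not tested.

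Of 18 receptors and ligand release proteins tested, 2 passed as higher and 2 as lower in males, a share close to that of all genes. *Porcn*, which attaches the lipid that Wnt proteins need for secretion, rose by 0.55 ± 0.13 (adjusted p = 0.00271), and *Wls*, which carries Wnt proteins to the surface, fell by 0.42 ± 0.11 (adjusted p = 0.00862). *Ryk*, a Wnt receptor, rose by 0.30 (adjusted p = 0.0196). The higher calls of *Porcn* and *Ryk* were lost under library size alone, with adjusted p of 0.199 and 0.970. *Lgr6* passed as lower at 0.0743 to 0.390 CPM in WT and 0 to 0.165 CPM in SIRT6-tg males. Of the 18 intracellular transducers and members of the destruction complex none passed with TMM, with a median of 0.00. Under library size alone 4 passed as lower, where 18.9% of all genes did.

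Among 16 nuclear factors, 3 passed as higher and 2 as lower in males with TMM. Under library size alone 0 passed as higher and 4 as lower, where 18.9% of all genes passed as lower. The corepressors *Tle1* and *Tle2* rose by 0.38 and 0.43 (adjusted p = 0.0126 and 0.0131), whereas *Tcf7*, a TCF factor abundant in T cells, fell by 0.43 (adjusted p = 0.0363) and the corepressor *Ctbp2* fell by 0.52 (adjusted p = 0.0226). Both *Tle* calls were lost under library size alone, with log2 fold changes of 0.10 and 0.16. Of 17 inhibitors tested, 4 passed as lower and 1 as higher. *Frzb* and *Dkk3*, secreted inhibitors, fell by 1.38 and 1.21 (adjusted p = 1.22e-06 and 8.41e-06). The higher gene was *Dkk4*, which was at 0 to 0.0300 CPM in male WT and at 0 to 0.416 CPM in male SIRT6-tg mice and so rested on very few reads.

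Of 12 other known Wnt/beta-catenin targets tested, which are targets in several tissues, 5 passed as lower in males and 0 as higher, against the 11.0% of all genes that passed as lower. The list's median was -0.31. *Cd44*, an adhesion receptor that leukocytes carry in abundance, fell by 1.42 ± 0.23 (adjusted p = 2.61e-05), from 28.8 ± 10.8 to 10.7 ± 3.59 CPM. *Ephb3*, an ephrin receptor, fell by 1.38 ± 0.26 (adjusted p = 0.000219), from 0.759 ± 0.188 to 0.286 ± 0.106 CPM. The leukocyte markers moved in the same direction in these libraries, and their part in *Cd44* was not tested. In females none of the 12 passed.

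**Figure D4:**
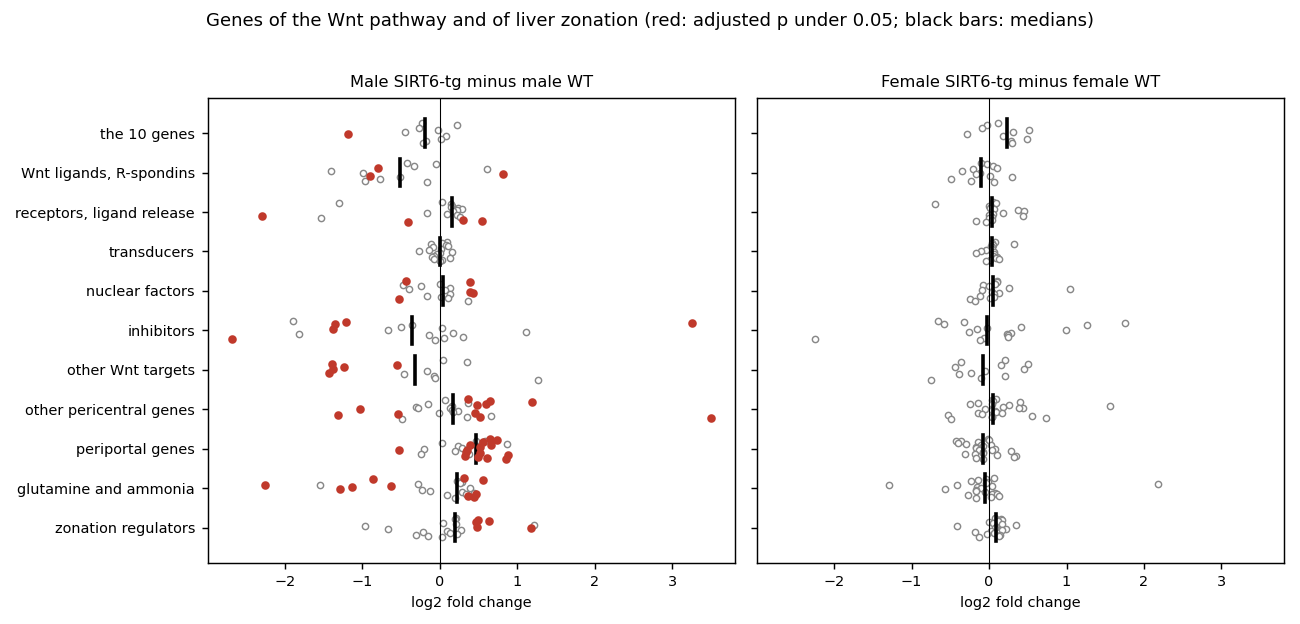
Log2 fold changes of the tested genes of 11 lists between SIRT6-tg and WT mice in males (left) and females (right). Each point is a gene, red points passed at an adjusted p under 0.05, and black bars are list medians. With TMM, the scaling shown, 14 of 25 periportal genes and 8 of 25 other pericentral genes passed as higher in males, and no listed gene passed in females. Under library size alone 4 and 2 passed as higher in males, where 4.89% of the 4294 genes that passed were higher.

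Other genes that mark the zones were read in the same way, without a test against the 10 genes. Of 25 other pericentral genes, 8 passed as higher and 3 as lower in males with TMM, with a median of 0.17. *Cyp2c37*, a cytochrome P450, rose by 1.19 (adjusted p = 6.34e-05) and *Mup17*, a urinary protein gene, rose by 3.50 (adjusted p = 0.00018). Both belong to families of near-identical copies, so that their counts are uncertain. *Slc13a3*, a dicarboxylate transporter, fell by 1.03 (adjusted p = 5.71e-05), and *Gstm3*, a glutathione transferase, fell by 1.31 (adjusted p = 0.00288). Of 25 periportal genes, 14 passed as higher and 1 as lower with TMM, with a median of 0.47. *Cyp2f2* rose from 592 ± 74.4 to 928 ± 98.8 CPM and *Hal*, the histidine ammonia-lyase, from 320.1 ± 51.3 to 536 ± 73.1 CPM, while *Ctsc* fell by 0.53. With the hepatocyte reference *Cyp2f2* and *Hal* no longer passed (adjusted p = 0.183 and 0.116). Under library size alone the periportal count was 4 higher and 2 lower with a median of 0.17. The other pericentral genes gave 2 higher and 5 lower with a median of -0.12. Of all 21583 genes tested, 4294 passed under that scaling, only 4.89% of them higher, and 18.9% of all genes passed as lower. Relative to the median of all genes, the 10 genes lay at -0.25 and -0.24, the other pericentral genes at 0.11 and 0.10, and the periportal genes at 0.42 and 0.39 with TMM and with library size alone.

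Genes of glutamine, glutamate, and ammonia handling outside the 10 divided in males, with 5 higher and 5 lower of 23 tested with TMM. The counts were 0 higher and 5 lower under library size alone. *Gls2*, the periportal glutaminase of hepatocytes, rose by 0.56 (adjusted p = 0.00067) and the mitochondrial aminotransferase *Got2* by 0.36 (adjusted p = 0.00022). The glutamine transporter *Slc1a5* fell by 1.13 (adjusted p = 5.69e-06). *Gls2* and *Got2* no longer passed under library size alone, with log2 fold changes of 0.27 and 0.08. Of a list of 20 genes, regulators of zonation and *Hamp*, the hepcidin gene, 5 passed as higher and 0 as lower with TMM. *Cebpa*, a hepatocyte transcription factor, rose by 0.47 and *Hamp* by 1.18. Under library size alone 1 was higher and 2 were lower, and *Cebpa* no longer passed (0.19, adjusted p = 0.0996).

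Within a group the mice differed from each other, and the 10 genes did not vary as 1 block. The log2 CPM of each gene was centred in its group, and Pearson correlations over the 28 livers were tested by permuting livers within groups, with adjustment over the 45 pairs. Of the 45 pairs, 27 had an adjusted p under 0.05, 19 of them positive and 8 negative. Spearman correlations gave 26 pairs and library size alone gave 27. These correlations share the depth and the make-up of each library, and they describe variation among mice within groups, not differences between genotypes.

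A first block held *Axin2*, *Rnf43*, *Znrf3*, and *Tbx3*. *Axin2* and *Tbx3* had the highest correlation, with r = 0.86 and rho = 0.83, and r between 0.73 and 0.96 inside each of the 4 groups. Their permutation p was 1e-05, the smallest the permutations can give. *Rnf43* and *Znrf3* followed with r = 0.79 (rho = 0.75), and *Axin2* and *Znrf3* with r = 0.71 (rho = 0.71). Without the 2 livers farthest from the median, these 3 values were 0.84, 0.71, and 0.68. *Glul* and *Slc1a2* formed a second pair with r = 0.74 (rho = 0.64, adjusted permutation p = 0.0012), and *Slc1a2* also went with *Rnf43* (r = 0.69) and *Znrf3* (r = 0.62). Without the 2 livers farthest from the median the value of *Glul* and *Slc1a2* was 0.52. *Glul* also had r = 0.54 with *Rnf43*, 0.49 with *Znrf3*, and 0.51 with *Oat* (adjusted permutation p = 0.0153, 0.0118, and 0.00728). None of these passed by Spearman correlation, and without the 2 farthest livers they were 0.22, 0.35, and 0.25. *Glul* and *Axin2* had r = 0.33, with an adjusted permutation p of 0.264. *Lgr5* went with genes of both blocks, with r = 0.70 for *Rnf43*, 0.63 for *Slc1a2*, 0.62 for *Glul*, and 0.60 for *Znrf3* (rho = 0.59, 0.53, 0.52, and 0.55). Without the 2 farthest livers these values were 0.52, 0.54, 0.49, and 0.49. With *Axin2* it had r = 0.31, with an adjusted permutation p of 0.147.

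*Lect2* and *Rhbg* stood against the first block. With *Glul* and *Slc1a2*, *Lect2* had r = -0.04 and -0.17 and *Rhbg* had r = -0.07 and -0.18, and none of these passed. Inside the male WT group alone, the same values were -0.92 and -0.68 for *Lect2* and -0.90 and -0.82 for *Rhbg*. In the other groups they lay between -0.37 and 0.46. *Lect2* had r = -0.74 with *Axin2*, -0.71 with *Znrf3*, -0.61 with *Rnf43*, and -0.61 with *Tbx3*, and each of these was below 0 inside all 4 groups. The value with *Axin2* was -0.63 without the 2 farthest livers. *Rhbg* had r = -0.60 with *Znrf3* and -0.50 with *Axin2*, but 0.62 with *Lect2*, and *Oat* had 0.62 with *Lect2* although it was -0.78 among male WT mice. Among the 7 male WT mice alone the negative values of *Rhbg* were as low as -0.93 with *Znrf3*. Mouse 6 of that group held both its highest *Rhbg*, 8.34 CPM, and its lowest *Znrf3*, 9.40 CPM. Over all groups the value of *Rhbg* with *Znrf3* was -0.48 without the 2 farthest livers. The 28 livers also varied in library make-up, since the TMM factor had r = -0.55 with *Lect2* and 0.47 with *Znrf3* inside groups. The mean log2 CPM of the secreted hepatocyte proteins had r = 0.67 with *Lect2*, 0.46 with *Rhbg*, -0.57 with *Axin2*, and -0.72 with *Znrf3*. Its part in the negative correlations was not tested.

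**Figure D5:**
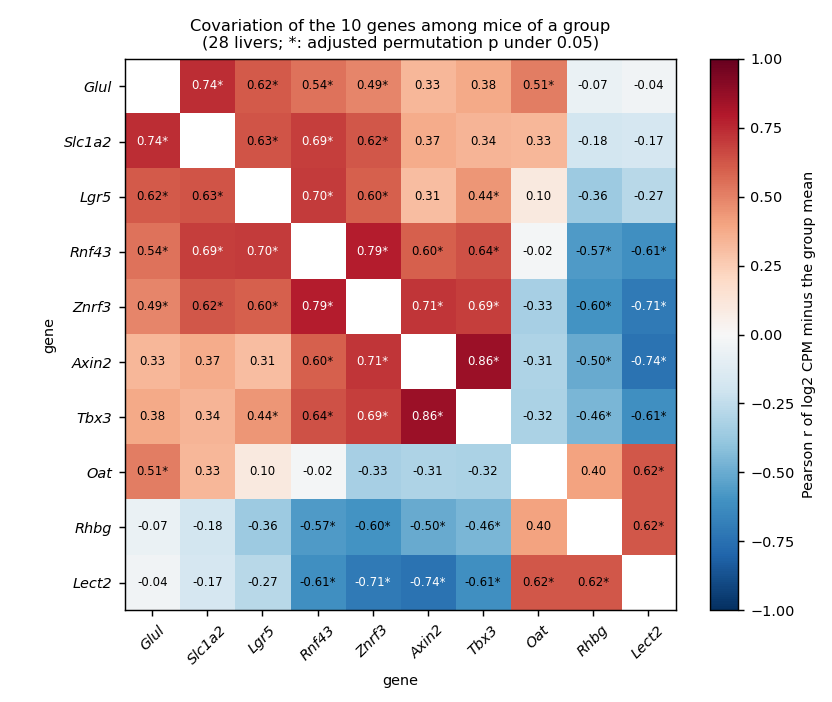
Pearson correlations between the 10 genes over 28 livers after the mean of each group was subtracted from the log2 CPM. Red cells are positive and blue cells negative, and an asterisk marks an adjusted permutation p under 0.05. *Axin2*, *Tbx3*, *Rnf43*, and *Znrf3* are positively correlated with each other and negatively with *Lect2* and *Rhbg*.

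Outside the 10 genes, those with variation most like *Glul* among the 14019 genes whose normalized counts averaged 10 or more were *Gulo* (r = 0.81), *Psmd2* (r = 0.79), and *Hsd17b12* (r = 0.78). For *Axin2* they were *Nvl* (r = 0.84), *Maml1* (r = 0.83), and *Bsdc1* (r = 0.83). These are the highest of many values over 28 livers and are given as a description. *Psmd2* and *Hsd17b12* were higher in SIRT6-tg males (0.23 and 0.33 on the log2 scale, adjusted p = 0.0316 and 0.00706), whereas *Gulo* had -0.31 (adjusted p = 0.0559).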

How the data were processed

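Liver RNA of 28 mice, 7 per group, had been sequenced single-end with a kit that does not mark strand. The authors aligned reads with STAR 2.5.0a to mm10 with Gencode vM12, kept unique reads, and deposited raw counts per gene from HTSeq-count, whose strand setting is not given in the sources used here. Reads in the minor part of the exons that *Glul*, *Slc1a2*, *Axin2*, and *Tbx3* share with a gene on the opposite strand therefore cannot be told apart. Library totals were 18758863 to 35393069 counts. Genes whose normalized counts averaged 0.5 or more were fitted in edgeR 4.0.16 (TMM, quasi-likelihood, all 4 groups in 1 model, R 4.3.3), with contrasts between groups and Benjamini-Hochberg adjustment over all genes tested at 0.05. CPM are scaled by library size times the TMM factor. Covariation used log2 CPM with a prior count of 2 and 100000 two-sided permutations of livers within groups. The script was tested on simulated data.

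The alternatives were DESeq2 1.42.0, RLE, upper quartile, library size alone, a secreted hepatocyte list as reference, other filters, 2 surrogate variables (sva 3.50.0), each sex alone, a replicate block, and each library left out. The 10 genes and all lists were chosen with earlier results of these data known. Of each list at most 2 higher and 2 lower genes with the lowest adjusted p in males were named (1 gene chosen by this rule is not reported here), with *Wnt2*, *Wnt9b*, and *Rspo3* whatever their values. The 3 genes most like *Glul* and *Axin2* were named by Pearson r.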

Additional observations from a re-analysis of the deposited data

Results flagged for a closer look

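Among the 40 sets of 7 values formed by the 10 genes and 4 groups, 2 held a mouse far from the others, and chance alone flags about 1 set in 20. *Glul* was at 1152 CPM in female SIRT6-tg mouse 2, with 1026 CPM in the next mouse, and *Slc1a2* was at 386 CPM in male WT mouse 5, with 270.2 CPM in the next.

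Of the 30 list genes taken up by the naming rule, 12 had a genotype effect that differed between the sexes by edgeR's interaction contrast, given here as male minus female effect on the log2 scale. Most of the 30 were chosen for a low adjusted p in males, so this count cannot be read against the 5.05% of all genes that passed. The effect was lower in males for *Ephb3* (-1.83, adjusted p = 0.00285), *Frzb* (-1.22, 0.00370), *Cd44* (-1.19, 0.0225), *Slc1a5* (-0.98, 0.00957), *Slc13a3* (-0.98, 0.0147), and *Dkk3* (-0.88, 0.0337). It was higher in males for *Hamp* (1.10, adjusted p = 0.0307), *Hal* (0.75, 0.0129), *Porcn* (0.72, 0.0163), *Gls2* (0.71, 0.00832), *Cyp2f2* (0.66, 0.00418), and *Cebpa* (0.47, 0.0180). Under library size alone and with the hepatocyte reference, the 6 genes lower in males still passed, whereas none of the 6 higher ones did, with adjusted p of 0.0957 or more. Those scalings moved the median of this contrast over all genes tested from 0.03 with TMM to -0.25 and -0.39. Of all genes that passed, 1.40% and 0.878% were then higher, so the loss of higher calls was shared by all genes. Sex and transgene level cannot be told apart in the genotype effects of these 12 genes.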

How the results depend on the processing

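Of 10 genes, those that passed between male genotypes numbered 2 with 2 surrogate variables, 2 with each sex alone, 4 with library size alone, and 5 with the hepatocyte reference. For the difference between the sexes they numbered 3, and 4 and 5 with these scalings, and between WT sexes 3 with 2 surrogate variables. All genes that passed in males numbered 7434 with 2 surrogate variables and 3578 of 21579 with each sex alone. They numbered 4294 with library size alone and 4390 with the hepatocyte reference. In females they numbered 21 with 2 surrogate variables, 42 with DESeq2, 2 with each sex alone, and 13 with the hepatocyte reference. For the difference they were 2762 with surrogate variables, 1863 with library size alone, and 2279 with the hepatocyte reference, and between WT sexes 4979, 4212, and 4966. The cause was not tested.

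Signs turned for values near 0. In males, library size alone and the hepatocyte reference gave -0.0744 and -0.17 for *Oat*, -0.22 and -0.32 for *Lect2*, and -0.25 and -0.32 for *Tbx3*. *Tbx3* had -0.0269 with DESeq2, -0.0264 with RLE, -0.0665 with each sex alone, and -0.0674 with upper quartile, *Lect2* -0.00733 with each sex alone, and *Lgr5* 0.0175 with 2 surrogate variables. The hepatocyte reference gave -0.0759 for *Ryk* and -0.00769 for *Got2* in males, 0.0307 for *Oat* in females, and 0.0309 for *Znrf3* between WT sexes. *Oat* had 4.2e-05 in females with 2 surrogate variables, -0.0531 and -0.20 for the difference, and 0.16 and 0.24 between WT sexes with the 2 scalings. The correlation of *Oat* and *Rnf43* was 0.00739 with library size alone.

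With each library left out in turn, 1 to 2 of the 10 genes passed in males and 1 to 3 between WT sexes. The shares of all genes in those fits are not given here, so these counts cannot be read against them. In females 3 to 16 of all genes passed. The count was 3 without SIRT6-tg mouse 3 or 4 and 10 without WT mouse 1 or 4. It was 14 without SIRT6-tg mouse 7 and 16 without SIRT6-tg mouse 2. In males the log2 fold change was -0.11 to 0.0721 for *Lgr5*, -0.0738 to 0.14 for *Lect2*, -0.0629 to 0.14 for *Tbx3*, and -0.34 to 0.0230 for *Rspo3*. It was -0.12 to 0.0870 for *Oat* in females, and between WT sexes -0.11 to 0.0805 for *Oat*, -0.0881 to 0.15 for *Axin2*, and -0.00196 to 0.24 for *Rnf43*.

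Replicate numbers are shared between groups, but correlations of same-numbered libraries were -0.28 to 0.27, with 5 of 14 pairs over 0.1, so the numbers were not taken as pairs. With the replicate block, 1 of the 10 genes passed in males, 0 in females, 0 for the difference, 1 between WT sexes, and 6 between SIRT6-tg sexes, as without it, and 4209, 6, 989, 2474, and 4821 of all genes. *Oat* turned to 0.00859 in females and to 0.00547 between WT sexes. The lowest counts among the 10 genes were those of *Rhbg*, 19 to 203 per library.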
